A study of Mus musculus with 10 samples.

Results

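Wnt signalling was examined through its genes in endocrine cells sorted from mouse pancreatic islets. The set comprised the 53 genes, of 19213 in the deposited table, whose symbols name a Wnt ligand, a frizzled or Lrp receptor, a secreted antagonist, an R-spondin or its partners, or beta-catenin, Axin and the TCF/LEF factors. By role these were 16 ligands, 12 receptors, 9 antagonists, 9 genes of the R-spondin axis and 7 intracellular genes. All are protein coding in the GENCODE M21 annotation of GRCm38, from which the gene coordinates below come.

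The sorts came from adult mice of both sexes with 3 transgenes. All carried a floxed YFP allele and mIns1-H2b-mCherry, a histone fusion whose Ins1 promoter is active in beta cells. Delta cell mice also carried Sst-Cre and alpha cell mice Gcg-cre, so YFP marks cells in which the somatostatin or glucagon promoter has driven Cre. Delta cells gave 2 libraries (1 male, 1 female), beta cells 5 (2 male, 3 female) and alpha cells 3 (2 male, 1 female). Each rested on islets pooled from 10 to 12 animals of 1 sex and cultured overnight at 5.5 mM glucose. Whether each library had its own pool is not in the labels, so the p-values speak only of the variation among these libraries, part of which may be technical. The titles carry running numbers, which follow each other in 4 pairs of a beta and a YFP sort of 1 sex and are shared, but for a letter, by beta replicates 4 and 5 and by alpha replicates 1 and 2. What these numbers mark is not stated.

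Wnt proteins are lipid-modified secreted ligands that bind frizzled receptors together with the co-receptors Lrp5 or Lrp6. In the canonical branch this stops the Axin-based complex from degrading beta-catenin, which then acts with TCF/LEF factors in the nucleus. Secreted antagonists bind the ligands or the co-receptors, whereas R-spondins, through Lgr receptors, block the ubiquitin ligases Znrf3 and Rnf43, which remove frizzled from the cell surface. In the pancreas the pathway is known for its roles in organ growth, and variants near TCF7L2 are known for their association with diabetes in people.

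Library totals recovered from the values lay between 16688097 and 26684086 reads, and values are RPKM (reads scaled to gene length and library total). Over the 12700 genes with at least 1 RPKM in at least 2 libraries, Spearman correlations were 0.959 to 0.991 within a cell type and at most 0.908 between types. Sorted types carried their own markers: the 5 delta markers summed to at least 54488 RPKM in delta libraries and at most 3288 elsewhere. The 7 beta markers summed to at least 212828 RPKM in beta libraries and at most 3606 elsewhere. For the 7 alpha markers the sums were at least 250149.7 in alpha libraries and at most 24169 elsewhere. Most of each sum in its own type came from hormone genes (Sst, Ins1 and Ins2, or Gcg), so the sums say little of the other markers. Alpha markers were not absent from the delta sort, where Gcg stood at 8.72% of its alpha mean. Ppy, the hormone of a further islet type, was highest there, at 16986 and 18106 RPKM against 4517 to 6535 in alpha and 449 to 934 in beta libraries. The reads of 7 hormone genes took 9.81% and 10.6% of delta, 17.6% to 31.8% of beta and 27.5% to 30.9% of alpha libraries, which lowers every other RPKM in a library by that share. These are bulk samples, so fewer cells of a type and less RNA per cell cannot be told apart.

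Promoter windows are shown for 3 members that set a cell type apart, 1 high in alpha cells (Sfrp5), 1 low there (Rspo4) and 1 high in beta cells (Fzd7). Their windows, the 250 bases before the RefSeq start in GRCm38.p6, hold no annotated exon. Each is printed 5′ to 3′ on the strand of the gene, with every CpG dinucleotide in capitals.
Sfrp5, chr19:42202253-42202502, minus strand: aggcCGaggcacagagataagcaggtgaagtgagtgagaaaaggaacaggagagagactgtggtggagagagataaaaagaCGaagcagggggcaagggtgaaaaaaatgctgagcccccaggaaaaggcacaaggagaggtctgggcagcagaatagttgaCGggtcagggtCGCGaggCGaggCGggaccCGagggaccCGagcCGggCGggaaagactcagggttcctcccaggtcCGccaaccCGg
Rspo4, chr2:151842677-151842926, plus strand: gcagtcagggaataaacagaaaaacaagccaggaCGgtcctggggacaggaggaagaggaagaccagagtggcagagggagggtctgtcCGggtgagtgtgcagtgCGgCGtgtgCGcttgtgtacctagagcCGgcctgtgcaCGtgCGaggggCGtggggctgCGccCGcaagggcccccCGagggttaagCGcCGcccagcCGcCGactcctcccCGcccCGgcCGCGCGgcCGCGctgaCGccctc
Fzd7, chr1:59481897-59482146, plus strand: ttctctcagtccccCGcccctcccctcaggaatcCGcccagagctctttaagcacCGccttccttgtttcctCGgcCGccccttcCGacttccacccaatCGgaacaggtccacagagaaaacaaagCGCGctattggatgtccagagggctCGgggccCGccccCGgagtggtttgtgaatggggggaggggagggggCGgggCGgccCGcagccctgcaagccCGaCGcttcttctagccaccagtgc
They hold 13, 24 and 17 CpGs, against a median of 6 over 32851 promoter windows of this length. GC content was 59.6%, 69.6% and 65.2%, against a median of 52.4%. None of the 3 windows holds the TCF/LEF core CTTTGAT or its reverse complement ATCAAAG, letters found in 3.21% of all windows. Of 47 windows available for 37 members, 2 held it (4.26%), 1 of Wnt5b and 1 of Wnt11. A match is a description of the letters, and no binding was measured.

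Of the 53 members, 23 passed the filter of at least 1 RPKM in at least 2 libraries and were tested, while 30 were below it. A member can pass through the type in which it is high, so counts over the 23 do not speak for the other 30. Differences are log2 fold changes of RPKM + 1 from limma, fitted to the 10 libraries together with terms for sex and type, a scale that understates the change of low values. A gene is called at a Benjamini-Hochberg adjusted p under 0.05 over all 12700 genes, and all adjusted p-values below are limma's.

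**Figure D1:**
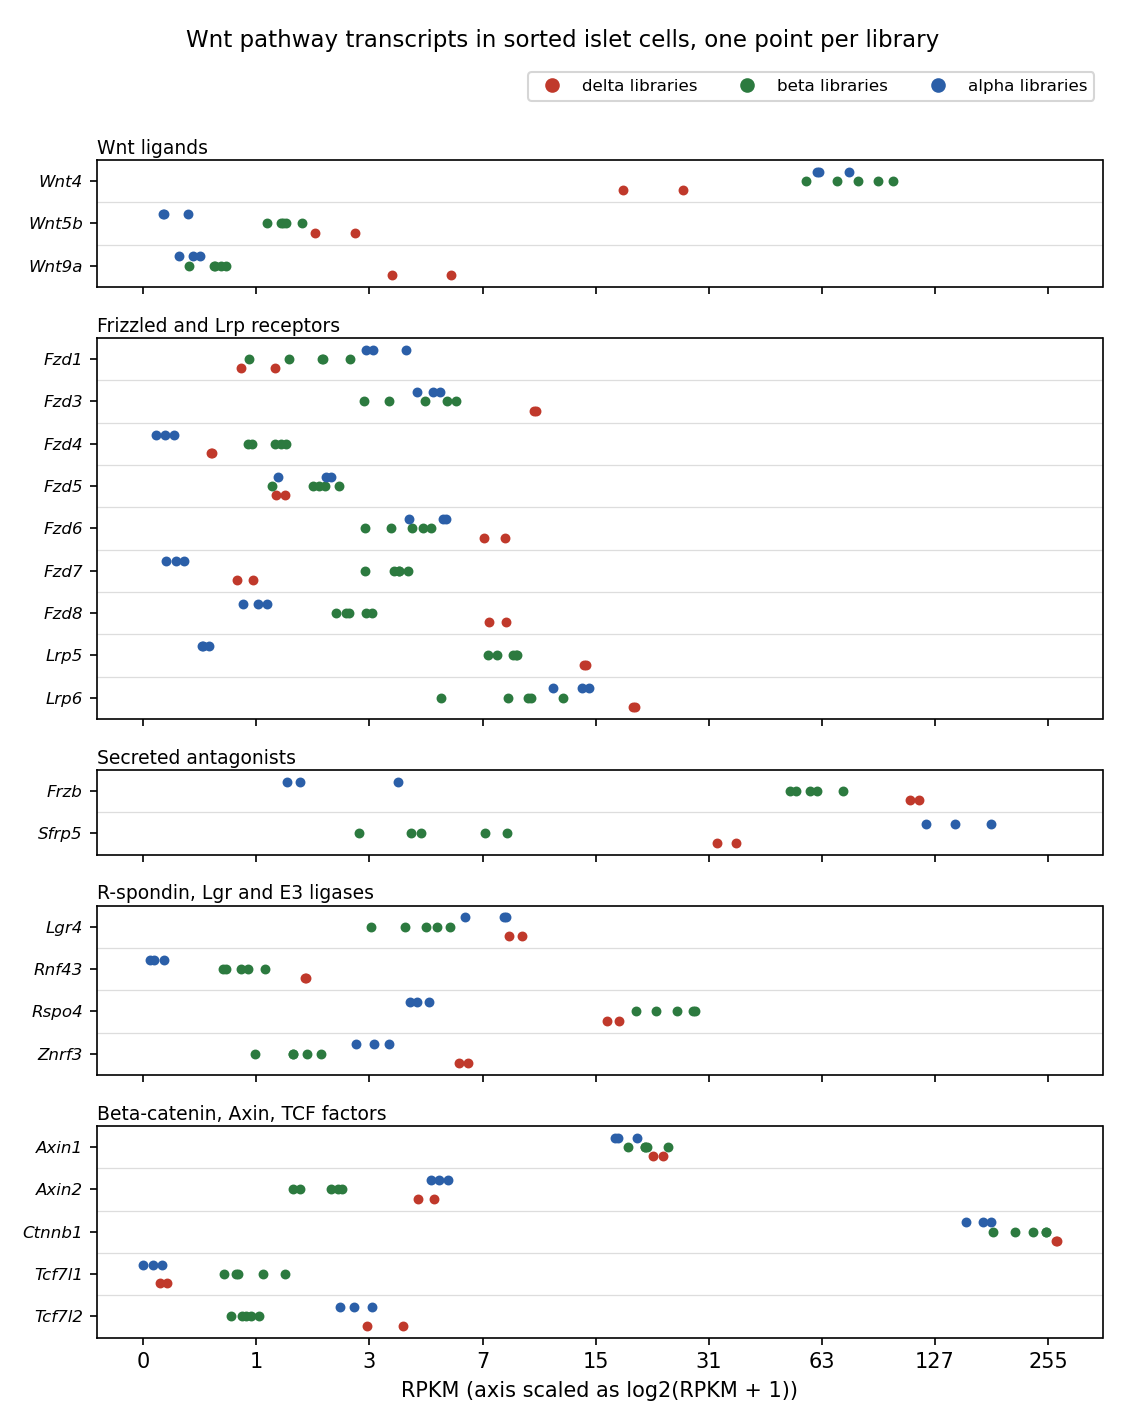
Deposited RPKM of the 23 tested members, on an axis scaled as log2(RPKM + 1), with 1 point per library in red for delta, green for beta and blue for alpha cells. Frzb and Lrp5 lie far to the left in alpha libraries, Sfrp5 far to the right, and Wnt4 is lowest in delta libraries.

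Delta cells were called higher than beta cells for 14 of the 23 members and lower for 5, where 37.4% and 13.3% of all tested genes were called. The median log2 fold change was 0.70 over the members and 0.25 over all tested genes. With median-ratio scaling, which moved that median of all genes to 0.01, 12 members were higher and 7 lower, where 25.1% and 24.4% of all tested genes were called. Without delta replicate 1 the counts were 8 and 3 (16.0% and 7.33% of all genes), and without delta replicate 2 they were 10 and 3 (23.1% and 8.38%).

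Alpha cells were called higher than beta cells for 7 members and lower for 10, where 23.7% and 30.3% of all tested genes were called. Median log2 fold changes were -0.25 over the members and -0.02 over all tested genes. Delta against alpha cells gave 13 higher and 3 lower members, where 32.1% and 5.89% of all tested genes were called, with medians of 0.53 and 0.26. Quantile normalization gave 9 higher and 5 lower (15.5% and 16.1% of all genes), and without delta replicate 1 there were 6 and 2 (14.9% and 3.85%). The comparisons share libraries, so their calls are not independent of each other.

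By a stricter rule, a call against both other types with a difference of 1 or more on the log2 scale, Wnt9a and Fzd8 were enriched in delta cells, where 4.73% of all tested genes met it. Fzd7 was enriched in beta cells (3.01% of all tested genes) and Sfrp5 in alpha cells (1.80%). Wnt9a and Fzd7 reached 1 RPKM only in the type where they were enriched, so they entered the test through that type. Frzb, Lrp5 and Rspo4 were lower in alpha cells than in both other types by the same margin (2.98%).

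**Figure D2:**
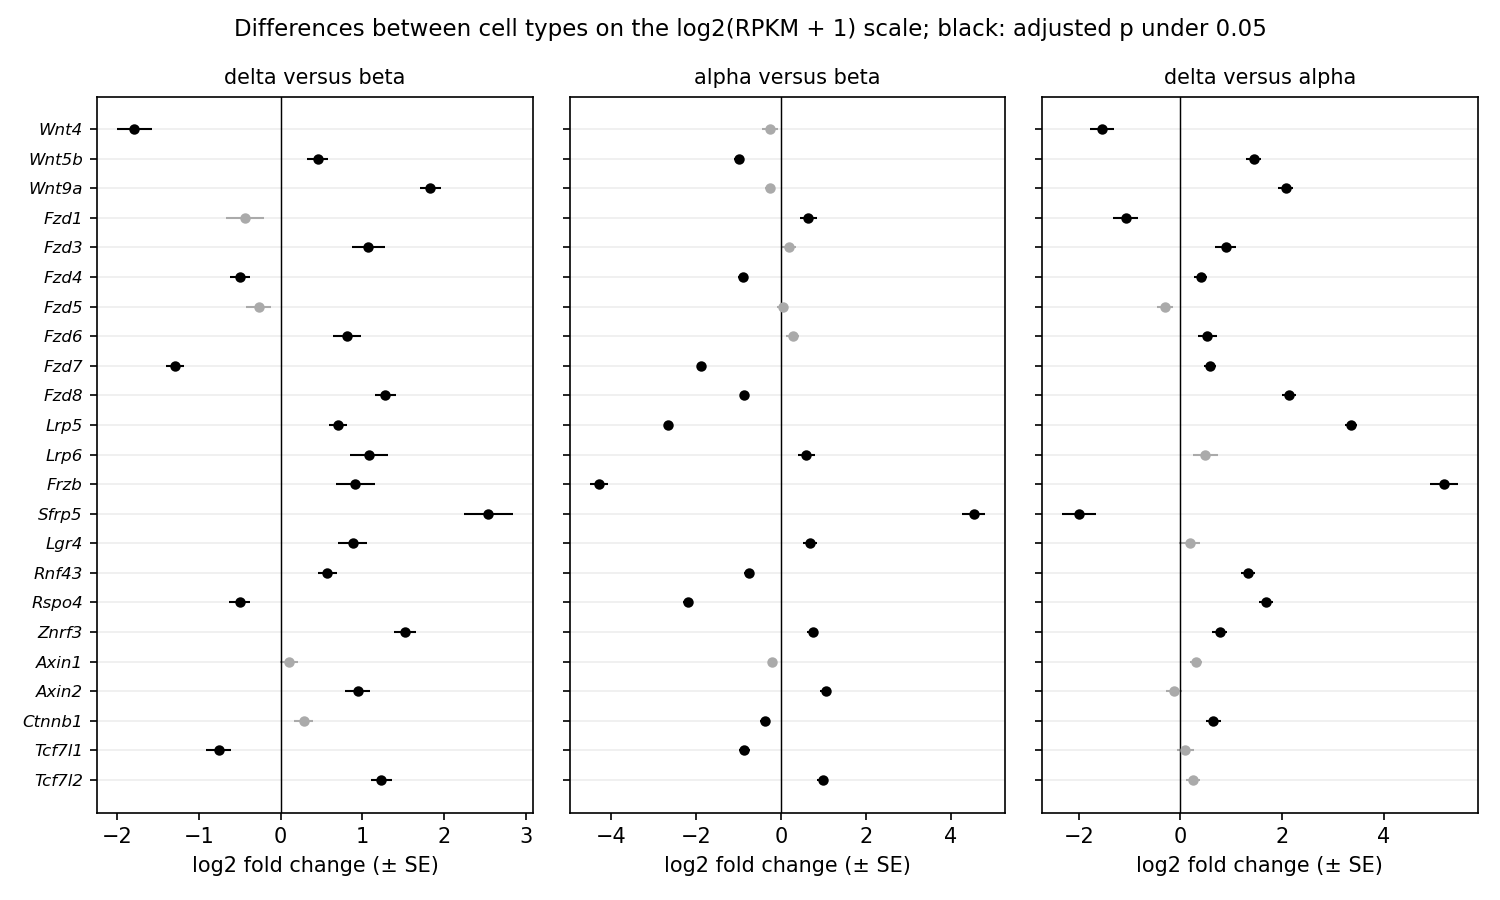
Log2 fold changes with SE for the 23 tested members in the 3 comparisons between cell types, each panel with its own horizontal scale, in black where the adjusted p is under 0.05 and in grey otherwise. The largest differences are those of Frzb and Sfrp5, which point in opposite directions in alpha against beta cells.

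Among the ligands, 3 of 16 passed the filter, and Wnt4 was by far the most abundant per kilobase in every cell type. Wnt4 signals through more than 1 branch of the pathway and is known from kidney and gonad development (chromosome 4, 137277489 to 137299726). It stood at 17.9 and 26.3 RPKM in delta replicates 1 and 2, at 97.8, 89.5, 79.0, 69.0 and 57.0 in beta replicates 1 to 5, and at 74.5, 61.7 and 61.3 in alpha replicates 1 to 3. Both delta libraries lay below all others, and beta and alpha libraries overlapped. Wnt4 was thus lower in delta than in beta cells (log2 fold change -1.79, SE 0.21, adjusted p = 0.000151) and than in alpha cells (-1.54, SE 0.24, adjusted p = 0.000877). Alpha and beta cells did not pass the test for it (-0.25, SE 0.19, adjusted p = 0.289).

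Wnt9a, a ligand of joint and limb development (chromosome 11, 59306928 to 59333552), ran the other way. Its levels were 5.59 and 3.60 RPKM in delta libraries, 0.540, 0.321, 0.611, 0.661 and 0.553 in beta libraries, and 0.415, 0.357 and 0.242 in alpha libraries. Delta libraries held 375 and 222 reads of it, against 14 to 51 in any beta or alpha library. The delta mean was 8.56 times the beta mean and 13.6 times the alpha mean (log2 fold changes 1.83, SE 0.13, adjusted p = 5.32e-06, and 2.07, SE 0.14, adjusted p = 6.53e-06). The 2 delta libraries differ by more than the whole range seen in the other types, and both lie above it. Wnt9a reached 1 RPKM in delta libraries only, so it passed the filter through the type in which it is high. Without either delta library it fell below the filter and was not tested.

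Wnt5b, a ligand best known from the non-canonical branch (chromosome 6, 119432531 to 119544347), was low everywhere and lowest in alpha cells. It stood at 1.86 and 2.66 RPKM in delta, at 1.36, 1.33, 1.40, 1.64 and 1.14 in beta, and at 0.316, 0.134 and 0.130 in alpha libraries, with 6 to 14 reads in each alpha library. The alpha libraries lay below all others, and alpha cells were called lower than beta cells (-0.98, SE 0.12, adjusted p = 0.000129) and than delta cells. The call of delta over beta cells (0.45, SE 0.13, adjusted p = 0.0195) was lost without delta replicate 2 (adjusted p = 0.315) and with a pseudocount of 0.1 (adjusted p = 0.0874). It was 0.26 under median-ratio scaling (adjusted p = 0.148) and -0.01 under quantile normalization.

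The other 13 ligands did not reach 1 RPKM in any library. Wnt2b and Wnt5a had the most reads among them, and the remaining 11 had at most 11 reads in any library. Wnt1, Wnt2, Wnt3, Wnt3a and Wnt16 had 1 to 3 reads in all 10 libraries together. Wnt10a, a canonical ligand of skin and teeth, had 2 and 11 reads in delta libraries, at most 2 in any beta library and 0 in alpha libraries.

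The frizzled receptors differed in which cell type carried most of each. Of 12 receptor genes 9 passed the filter. Delta against beta cells gave 5 higher and 2 lower, where 37.4% and 13.3% of all tested genes were called. In alpha against beta cells 2 were higher and 4 lower (23.7% and 30.3% of all tested genes). In delta against alpha cells there were 6 and 1 (32.1% and 5.89%). Fzd3, Fzd6 and Fzd8 were highest in delta cells, Fzd7 and Fzd4 in beta cells, and Fzd1 in alpha cells. Fzd5 was called in none of the comparisons between types.

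Fzd8 is a receptor of the canonical branch (chromosome 18, 9212163 to 9218136). It stood at 7.35 and 8.26 RPKM in delta, at 2.26, 2.53, 2.91, 2.47 and 3.06 in beta, and at 1.02, 1.13 and 0.840 in alpha libraries. The 3 types did not overlap and were called different from each other, with delta over beta at 1.28 (SE 0.13, adjusted p = 4.38e-05) and alpha against beta at -0.86 (SE 0.11, adjusted p = 0.000208). Fzd8 was 7.82 times as high in delta as in alpha cells by their means.

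Fzd3, which is known for axon guidance and planar cell polarity (chromosome 14, 65192449 to 65262463), stood at 9.94 and 10.1 RPKM in delta, at 2.87, 3.52, 4.61, 5.44 and 5.81 in beta, and at 4.37, 4.92 and 5.16 in alpha libraries. Delta libraries were above all others, while the alpha values fell inside the beta range. Delta cells were called higher than beta cells (1.07, SE 0.20, adjusted p = 0.00197) and than alpha cells (0.89, SE 0.21, adjusted p = 0.0101, and 0.121 without delta replicate 1).

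Fzd6, which acts with Fzd3 in tissue polarity (chromosome 15, 39006034 to 39038188), had a similar order, with 8.19 and 7.08 RPKM in delta, 2.90, 3.57, 4.18, 4.57 and 4.83 in beta, and 4.11, 5.38 and 5.29 in alpha libraries. Delta cells were called higher than beta cells (0.81, SE 0.17, adjusted p = 0.00388, and 0.08 without delta replicate 1). The call over alpha cells (0.53, SE 0.19, adjusted p = 0.0498) was at the threshold and was lost under most alternatives, among them pseudocount 0.5 (adjusted p = 0.0561), scaling by median ratios (0.25, adjusted p = 0.216), and the loss of beta replicate 2, 3, 4 or 5 or alpha replicate 2 (adjusted p = 0.0555, 0.0646, 0.0631, 0.0504 and 0.0529).

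Fzd7 (chromosome 1, 59482424 to 59486955), whose promoter window is given above, is a canonical receptor known from stem cells. That window ends at 59482146 and so does not reach the gene start given here. It stood at 0.772 and 0.963 RPKM in delta, at 2.89, 4.06, 3.64, 3.79 and 3.79 in beta, and at 0.150, 0.222 and 0.286 in alpha libraries. All beta libraries lay above all delta libraries, and these above all alpha libraries. Only beta libraries reached 1 RPKM, so Fzd7 passed the filter through the type in which it is high. The beta mean was 4.19 times the delta mean and 16.6 times the alpha mean, with log2 fold changes of -1.29 for delta (SE 0.11, adjusted p = 1.22e-05) and -1.88 for alpha cells (SE 0.09, adjusted p = 4.76e-07). Delta over alpha cells (0.59, SE 0.12, adjusted p = 0.00357) was lost without delta replicate 1 (adjusted p = 0.0571) and under quantile normalization (0.32, adjusted p = 0.0753).

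Fzd4, the receptor of the retinal ligand Norrin (chromosome 7, 89404355 to 89413134), had the same order at lower levels. It stood at 0.524 and 0.511 RPKM in delta, at 0.900, 0.944, 1.24, 1.40 and 1.33 in beta, and at 0.0813, 0.209 and 0.140 in alpha libraries, where 5 to 13 reads were behind each value. Only beta libraries reached 1 RPKM, so Fzd4 too passed the filter through the type in which it is high. Alpha cells were called lower than beta cells (-0.90, SE 0.11, adjusted p = 0.000123). The call of delta below beta cells (-0.50, SE 0.12, adjusted p = 0.00816) was lost without either delta library (adjusted p = 0.0715 and 0.0988). That of delta above alpha cells (adjusted p = 0.0398) ended without delta replicate 1 or 2 (adjusted p = 0.272 and 0.144), alpha replicate 1 or 3 (adjusted p = 0.0912 and 0.132) or beta replicate 3 (adjusted p = 0.0554), and under median-ratio scaling (adjusted p = 0.0708).

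Fzd1 (chromosome 5, 4753839 to 4758035) was the 1 receptor with its highest level in alpha cells. Its levels were 0.825 and 1.24 RPKM in delta, 1.45, 0.916, 2.55, 2.01 and 2.0 in beta, and 2.92, 4.01 and 3.08 in alpha libraries. Alpha libraries lay above all others, and delta and beta libraries overlapped. Delta against beta cells gave -0.44 (SE 0.23, adjusted p = 0.135), which passed without beta replicate 2 (adjusted p = 0.0338), with median ratios as the scale (adjusted p = 0.0348) and under quantile normalization (-0.88, adjusted p = 0.00272). Alpha cells were called higher than beta cells (0.64, SE 0.20, adjusted p = 0.0246), a call lost without alpha replicate 2 (adjusted p = 0.0846), without alpha replicate 3 (adjusted p = 0.0905) or without beta replicate 1 (adjusted p = 0.0654). Delta against alpha cells gave -1.08 (SE 0.25, adjusted p = 0.00829, and 0.131 without delta replicate 1).

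The co-receptors Lrp5 and Lrp6, which share their role beside frizzled, were distributed differently. Lrp5 (chromosome 19, 3584828 to 3686564) stood at 14.1 and 13.9 RPKM in delta, at 7.27, 8.90, 8.81, 7.73 and 8.65 in beta, and at 0.498, 0.435 and 0.443 in alpha libraries. All 3 alpha libraries lay far below the lowest beta library. It was lower in alpha than in beta cells (-2.66, SE 0.10, adjusted p = 7.76e-08) and than in delta cells, whose mean was 30.6 times as high. Delta over beta cells gave 0.70 (SE 0.11, adjusted p = 0.000838).

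Lrp6 (chromosome 6, 134446476 to 134566965) was present in all types, with 19.4 and 19.1 RPKM in delta, 5.19, 8.38, 9.74, 9.54 and 12.1 in beta, and 11.3, 14.4 and 13.7 in alpha libraries. In alpha cells the co-receptor transcripts were thus mostly those of Lrp6, at 13.1 ± 1.65 RPKM (SD, n = 3) against 0.459 ± 0.0342 for Lrp5. In beta cells the means of Lrp6 and Lrp5 were 8.99 ± 2.52 and 8.27 ± 0.730 (n = 5), and in delta cells 19.2 ± 0.150 and 14 ± 0.128 (n = 2). Lrp6 was called higher in delta than in beta cells (1.08, SE 0.23, adjusted p = 0.00378), which was lost without delta replicate 1 (adjusted p = 0.0652). The call of alpha over beta cells (0.60, SE 0.20, adjusted p = 0.0314) was lost without alpha replicate 2 (adjusted p = 0.108), alpha replicate 3 (adjusted p = 0.0825), beta replicate 2 (adjusted p = 0.0541) or beta replicate 4 (adjusted p = 0.0501). Delta against alpha cells did not pass (0.49, SE 0.25, adjusted p = 0.153), but did without beta replicate 1 (adjusted p = 0.0301).

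Fzd5, at 1.20 to 2.33 RPKM over all libraries, differed least among the tested receptors by its means of 1.32, 1.87 and 1.83 RPKM in delta, beta and alpha cells. Median-ratio scaling brought it past the threshold as lower in delta than in beta cells (-0.43, adjusted p = 0.0176) and than in alpha cells (-0.50, adjusted p = 0.0224), and so did quantile normalization (-0.71 and -0.59, adjusted p = 0.000787 and 0.00563). Fzd2, Fzd9 and Fzd10 did not pass the filter. Fzd10 had 34 reads in delta replicate 1 and at most 9 in any other library, 5 of them in delta replicate 2.

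The secreted antagonists held the largest differences of the set. Only Frzb and Sfrp5 of 9 passed the filter, and both belong to the family of secreted frizzled-related proteins, which bind Wnt ligands through a domain like that of frizzled. Frzb (chromosome 2, 80411970 to 80447625) stood at 109 and 115 RPKM in delta, at 51.8, 72.0, 61.3, 53.5 and 58.5 in beta, and at 3.76, 1.42 and 1.61 in alpha libraries. The types did not overlap, in the order delta, beta, alpha. Alpha cells were called lower than beta cells (-4.28, SE 0.22, adjusted p = 5.25e-07), and delta cells higher than alpha cells (5.19, SE 0.27, adjusted p = 1.15e-06), a ratio of means of 49.7.

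The step of Frzb from beta to delta cells was smaller, 1.89 times by the means, and less secure (0.91, SE 0.24, adjusted p = 0.0128). It did not pass without delta replicate 1 (adjusted p = 0.0766), without delta replicate 2 (adjusted p = 0.106) or with median-ratio scaling (adjusted p = 0.0726). Leaving the hormone reads out of the library totals, an alternative chosen after seeing the data, gave 0.69 (adjusted p = 0.0563).

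Sfrp5 (chromosome 19, 42197971 to 42202252) had the reverse order of Frzb between alpha and beta cells. It stood at 32.7 and 36.8 RPKM in delta, at 8.31, 7.11, 4.15, 4.48 and 2.76 in beta, and at 179.5, 144 and 120.3 in alpha libraries. Again the types did not overlap, with alpha above delta and delta above beta cells. Sfrp5 was called higher in alpha than in beta cells (4.54, SE 0.27, adjusted p = 1.58e-06), and delta over beta cells gave the same direction (2.54, SE 0.30, adjusted p = 0.000151). Delta against alpha cells gave -2.0 (SE 0.33, adjusted p = 0.00145), and the means of alpha and beta cells differed 27.6 times. In every alpha library Sfrp5 was more abundant per kilobase than Frzb, and in every delta and beta library Frzb was the more abundant.

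Genes that mark another sort were set beside these levels, since a sort can hold some cells or RNA of another type. In alpha libraries Frzb stood at 3.34%, 1.26% and 1.43% of its delta mean. Of the 5 delta markers, Sst, Hhex and Ghsr stood there at 5.19%, 1.91% and 2.60%, at 2.81%, 1.08% and 1.58%, and at 2.99%, 1.13% and 1.09%. Rbp4 and Pdx1, the rest of that list, were not set beside Frzb. In alpha replicate 2 all 5 markers summed to 1459.7 RPKM, with Sst at 1079.7, Hhex at 2.07 and Ghsr at 0.548. In delta replicate 1 the sum was 54488 RPKM, with 52388, 193 and 50.2. Rbp4 and Pdx1 together thus stood in alpha replicate 2 at a larger share of that delta level than the 3 shown. The shares of these 3 therefore do not speak for all delta markers. Frzb and the 3 markers shown were highest in alpha replicate 1. The Frzb values lie within the range of these 3 markers in each alpha library. Lrp5 stood at 3.55%, 3.10% and 3.16% of its delta mean there and was even over the 3 libraries. The part of delta cell RNA in the alpha levels was not tested.

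In delta libraries Sfrp5 stood at 22.1% and 24.9% of its alpha mean. The alpha genes Gcg, Irx1 and Irx2 stood there at 8.33% and 9.11%, 11.9% and 13.1%, and 16.0% and 14.8%. The rest of the 7 alpha markers were not set beside Sfrp5. The Sfrp5 share was above that of each of these 3 genes in both delta libraries. In beta libraries Sfrp5 stood at 1.87% to 5.62% of its alpha mean, where Gcg stood at 0.182% to 1.12%, Irx1 at 0.251% to 1.42% and Irx2 at 0.913% to 2.84%. Sfrp5 lay above these 3 genes in beta replicates 1 to 4 and below Irx2 in beta replicate 5. The part of alpha cell RNA in the delta level was not tested.

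**Figure D3:**
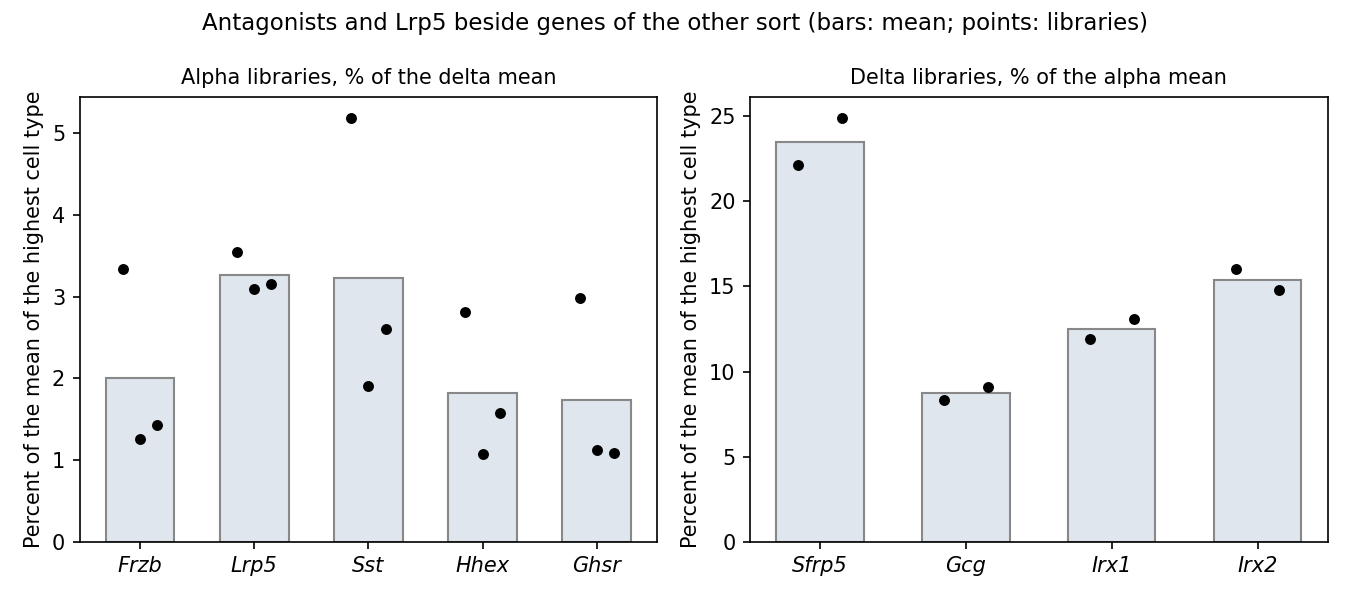
Left, level in each alpha library as a percentage of the delta mean for Frzb, Lrp5 and 3 delta markers. Right, level in each delta library as a percentage of the alpha mean for Sfrp5 and 3 alpha genes, with bars for means and points for libraries. Frzb in alpha libraries lies among the 3 delta markers shown, and Sfrp5 in delta libraries lies above the 3 alpha genes shown. The delta markers Rbp4 and Pdx1, which together stood at a larger share, are not drawn.

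Mesenchymal cells are a common source of secreted frizzled-related proteins in other organs. The 9 mesenchymal and stellate markers summed to 1.08 to 1.35 RPKM in delta, 0.305 to 1.68 in beta and 3.59 to 4.42 in alpha libraries, and all 9 stayed under 1 RPKM in each delta and beta library. The highest level of a mesenchymal marker in any library was 2.66 RPKM. The 8 acinar markers summed to 644 to 820.1 RPKM in delta, 192 to 9570.4 in beta and 81.6 to 2955 in alpha libraries. The sum over the 7 ductal markers was largest in the alpha sort, at 843 to 1951 RPKM. It was 344 to 414 in delta and 548 to 715 in beta libraries. The highest value of a single ductal marker was 1797 RPKM, above every delta and beta sum. A single gene thus made up most of the largest alpha sum, so the sums say little of the other ductal markers. The part of such cells in the levels of the members was not tested.

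Of the other 7 antagonists none passed the filter. Dkk2, a ligand of Lrp5 and Lrp6 that blocks or modulates them (chromosome 3, 132085292 to 132180304), had 24 and 20 reads in delta libraries. The 5 beta libraries held 2 reads of it together, and the 3 alpha libraries 4. Per total reads this is 67.1 times as much in delta as in beta cells (95% exact interval 17.5 to 572) and 14.5 times as much as in alpha cells (5.27 to 55.4), intervals that cover counting error only.

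Dkk3, a divergent member of the Dickkopf family, and Wif1, which binds Wnt ligands directly, were low in all types. Dkk3 stood at 0.0590 and 0.0321 RPKM in delta, at 0.136 to 0.514 in beta and at 0.196 to 0.427 in alpha libraries, with 4 and 2 reads behind the delta values. Wif1 stood at 0.574 and 0.576 RPKM in delta, at 0.0960 to 0.518 in beta, and at 1.66, 0.925 and 0.665 in alpha libraries. Sfrp2, a relative of Sfrp5, had 13 and 9 reads in delta, 1 to 6 in beta and 0 to 2 in alpha libraries. Sfrp1, Dkk1 and Dkkl1 had at most 7 reads in any library.

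For members under the filter, limma-voom was run on the recovered reads of the 14505 genes with at least 10 reads in at least 2 libraries, an alternative chosen after seeing the data. It took in 6 further members, Dkk2, Dkk3, Lgr5, Wif1, Wnt2b and Wnt5a. Of all genes so tested, 36.9% were higher and 13.2% lower for delta against beta, 24.2% and 28.6% for alpha against beta, and 28.6% and 5.52% for delta against alpha cells. A member enters this test through the libraries in which it has reads, so the calls are no count over all low members.

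Wnt5a, the best-known ligand of the non-canonical branch, stood at 0.306 and 0.394 RPKM in delta, at 0.0749 to 0.206 in beta, and at 0.493, 0.528 and 0.603 in alpha libraries. Wnt2b, a canonical ligand, stood at 0.554 and 0.437 RPKM in delta, at 0.0961 to 0.336 in beta, and at 0.621, 0.779 and 0.802 in alpha libraries. For both, beta libraries were the lowest and did not overlap the others. On the log2 scale of reads Wnt5a was higher than in beta cells by 1.53 in delta (SE 0.37, adjusted p = 0.00782 by limma-voom) and by 2.22 in alpha cells (SE 0.33, adjusted p = 0.000481).

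Wnt2b gave 1.37 in delta (SE 0.38, adjusted p = 0.0154) and 1.98 in alpha cells (SE 0.34, adjusted p = 0.00116), both against beta cells. Wif1 was called only in alpha against beta cells (1.92, SE 0.46, adjusted p = 0.00696), among the 3 comparisons between types run for it. Dkk3 was called lower in delta than in beta cells (-2.20, SE 0.73, adjusted p = 0.0315) and than in alpha cells (-2.57, SE 0.79, adjusted p = 0.0312). Without the filter on RPKM, in the log2(RPKM + 1) fit, Dkk3 passed neither (adjusted p = 0.0904 and 0.085). The same fit called Wnt5a lower in delta than in alpha cells (-0.21, SE 0.05, adjusted p = 0.0176). Limma-voom did not (-0.69, SE 0.37, adjusted p = 0.18).

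That fit without a filter took in all 53 members and 19213 genes, of which 27.4% were called higher and 10.2% lower for delta against beta, 19.0% and 22.2% for alpha against beta, and 23.0% and 5.15% for delta against alpha cells. Besides members already described it called Wnt10a higher in delta than in beta (0.21, SE 0.06, adjusted p = 0.032) and alpha cells (0.22, SE 0.07, adjusted p = 0.0478). Sfrp2 was likewise higher in delta than in beta (0.24, adjusted p = 0.00566) and alpha cells (0.32, adjusted p = 0.00236). Delta against alpha cells also gave calls for Fzd10 (0.36, adjusted p = 0.0356), Lgr6 (-0.13, adjusted p = 0.0381) and Fzd9 (0.06, adjusted p = 0.0468), and alpha against beta cells for Fzd9 (-0.06, adjusted p = 0.0152). Behind these calls stand few reads, at most 34 in any library, and for Wnt10a and Fzd10 most of them came from 1 delta library.

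**Figure D4:**
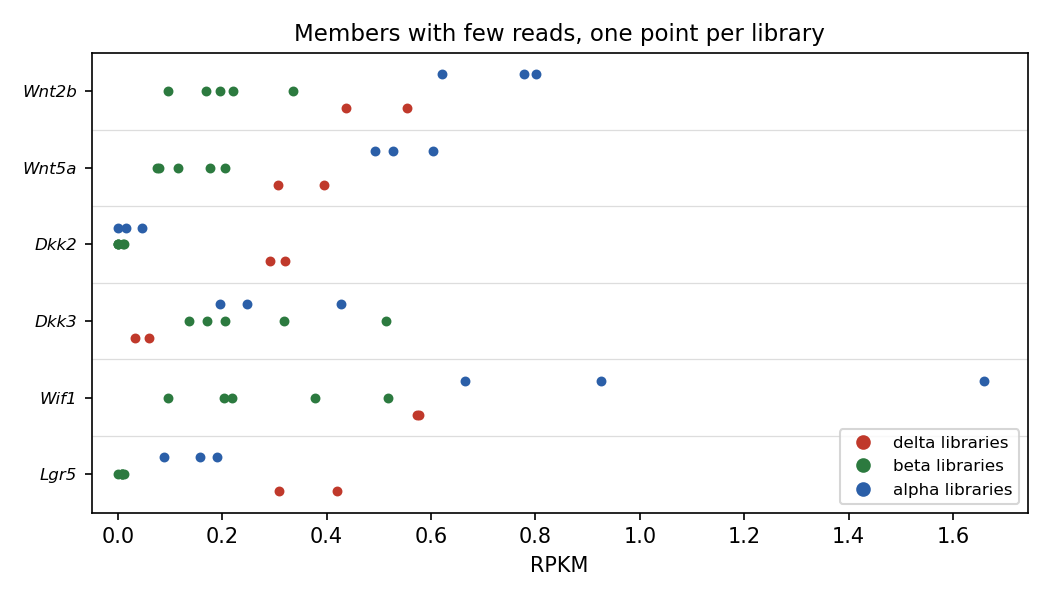
Deposited RPKM of the 6 members below the filter that entered the test on reads, with 1 point per library in red for delta, green for beta and blue for alpha cells. Lgr5 and Dkk2 are near 0 in beta libraries and highest in delta libraries, while Wnt5a, Wnt2b and Wif1 are highest in alpha libraries.

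The R-spondin axis sets how long frizzled receptors stay at the cell surface. Of its 9 genes 4 passed the filter. Delta against beta cells gave 3 higher and 1 lower, where 37.4% and 13.3% of all tested genes were called. Alpha against beta cells gave 2 each way (23.7% and 30.3% of all tested genes). Rspo4 is a secreted R-spondin known from nail development (chromosome 2, 151842927 to 151874668). It stood at 16.2 and 17.5 RPKM in delta, at 25.4, 28.0, 19.5, 28.4 and 22.2 in beta, and at 4.35, 4.12 and 4.76 in alpha libraries. Beta libraries lay above delta and these above alpha libraries, without overlap. Rspo4 was called lower in alpha than in beta cells (-2.19, SE 0.12, adjusted p = 7.21e-07) and than in delta cells.

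The call of Rspo4 as lower in delta than in beta cells (-0.50, SE 0.13, adjusted p = 0.012) was lost without delta replicate 1 (adjusted p = 0.075) and without delta replicate 2 (adjusted p = 0.105). The other R-spondins, Rspo1, Rspo2 and Rspo3, had at most 6 reads in any library, so Rspo4 was the 1 R-spondin detected at a level that could be compared.

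Among the receptors of R-spondins, Lgr4 was the main one by level (chromosome 2, 109917647 to 110014257). It stood at 9.21 and 8.39 RPKM in delta, at 3.05, 3.97, 4.67, 5.04 and 5.55 in beta, and at 6.18, 8.22 and 8.14 in alpha libraries. Beta libraries were the lowest, without overlap. Lgr4 was called higher than in beta cells in delta (0.88, SE 0.18, adjusted p = 0.00359, and 0.0715 without delta replicate 1) and in alpha cells (0.69, SE 0.16, adjusted p = 0.00579).

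Lgr5, a stem cell marker of the gut (chromosome 10, 115450311 to 115587780), was low but uneven. It had 40 and 27 reads in delta libraries (0.420 and 0.309 RPKM), 7, 15 and 13 in alpha libraries, and 4 in the 5 beta libraries together. Per total reads it was 51.1 times as abundant in delta as in beta cells (95% exact interval 19.1 to 193) and 20.3 times as abundant in alpha as in beta cells (7.26 to 78.6), counting error only. By limma-voom on reads it was called in delta over beta (adjusted p = 3.01e-05), alpha over beta (adjusted p = 0.000266) and delta over alpha cells (adjusted p = 0.0239). Lgr6 had at most 10 reads in any library.

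The ubiquitin ligases Znrf3 and Rnf43, which do the same work on frizzled, differed in alpha cells. Znrf3 (chromosome 11, 5276324 to 5444847) stood at 6.34 and 5.92 RPKM in delta, at 0.981, 1.73, 1.51, 1.5 and 1.97 in beta, and at 2.69, 3.1 and 3.50 in alpha libraries. It was called higher than in beta cells in both delta (1.52, SE 0.14, adjusted p = 2.74e-05) and alpha cells (0.75, SE 0.13, adjusted p = 0.000925). Delta over alpha cells gave 0.77 (SE 0.15, adjusted p = 0.00394, and 0.0881 without delta replicate 1).

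Rnf43 (chromosome 11, 87662722 to 87735539) stood at 1.72 and 1.69 RPKM in delta, at 0.663, 0.636, 1.11, 0.819 and 0.904 in beta, and at 0.139, 0.0412 and 0.0665 in alpha libraries, where 10, 3 and 5 reads were counted. It was lower in alpha than in beta cells (-0.76, SE 0.11, adjusted p = 0.000305) and higher in delta than in alpha cells (1.33, SE 0.13, adjusted p = 5.56e-05). Its call in delta over beta cells (0.57, SE 0.12, adjusted p = 0.00387) was lost without delta replicate 1 (adjusted p = 0.0512), without delta replicate 2 (adjusted p = 0.058) and under quantile normalization (adjusted p = 0.331). Alpha cells thus had more Znrf3 and less Rnf43 than beta cells.

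Inside the cell, Ctnnb1, which encodes beta-catenin, a protein of adherens junctions as well as of Wnt signalling (chromosome 9, 120929216 to 120960507), was the most abundant member by its mean in each cell type, though in alpha replicate 1 Sfrp5 was above it. Ctnnb1 stood at 268 and 269 RPKM in delta, at 182, 208, 233, 252 and 252 in beta, and at 154, 170.5 and 179.5 in alpha libraries. The alpha libraries lay below the others by a small margin. Alpha cells were called lower than beta cells (-0.38, SE 0.11, adjusted p = 0.0175), which was lost without beta replicate 3, alpha replicate 1 or alpha replicate 3 (adjusted p = 0.054, 0.0564 and 0.0829) and under quantile normalization (adjusted p = 0.819). Delta over alpha cells gave 0.65 (SE 0.14, adjusted p = 0.0047), which was lost without delta replicate 1 (adjusted p = 0.0769) and under quantile normalization (0.33, adjusted p = 0.178).

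Axin1, the scaffold of the complex that degrades beta-catenin (chromosome 17, 26138688 to 26195811), stood at 21.7 and 23.2 RPKM in delta, at 20.6, 24.0, 20.7, 20.9 and 18.5 in beta, and at 17.4, 19.6 and 17.0 in alpha libraries. Delta libraries fell inside the beta range, and Axin1 was called in none of the comparisons between types. Delta over alpha cells (0.30, SE 0.12, adjusted p = 0.077) passed without beta replicate 2 (adjusted p = 0.0413) but was -0.02 under quantile normalization. Axin2 is a second scaffold that beta-catenin itself induces in many tissues (chromosome 11, 108920349 to 108950783). It stood at 4.40 and 4.96 RPKM in delta, at 1.61, 2.16, 2.38, 1.5 and 2.30 in beta, and at 4.83, 5.11 and 5.47 in alpha libraries. Beta libraries lay below all others, and delta and alpha libraries overlapped. Axin2 was called higher than in beta cells in delta (0.94, SE 0.15, adjusted p = 0.000798) and in alpha cells (1.06, SE 0.13, adjusted p = 0.000151).

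Of the 4 TCF/LEF factors, Tcf7l1 and Tcf7l2 passed the filter and differed in opposite directions between beta cells and the other types. Tcf7l2 (chromosome 19, 55741820 to 55933654) stood at 3.90 and 2.94 RPKM in delta, at 0.712, 0.935, 0.878, 0.832 and 1.04 in beta, and at 2.34, 2.65 and 3.07 in alpha libraries. It was called higher than in beta cells in delta (1.23, SE 0.13, adjusted p = 6.51e-05) and in alpha cells (0.98, SE 0.12, adjusted p = 0.000109), with means 3.90 and 3.06 times the beta mean.

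Tcf7l1, which mostly represses its targets (chromosome 6, 72626378 to 72789254), stood at 0.155 and 0.112 RPKM in delta, at 0.767, 1.39, 1.09, 0.642 and 0.793 in beta, and at 0, 0.123 and 0.0597 in alpha libraries. Beta libraries held 43 to 98 reads of it each, and the others at most 9. It passed the filter through beta replicates 2 and 3 only, and was not tested without either of them. It was called lower than in beta cells in delta (-0.76, SE 0.15, adjusted p = 0.00282) and in alpha cells (-0.86, SE 0.13, adjusted p = 0.000611). Tcf7 had at most 9 reads in any library and Lef1 had 1 read in all 10. TCF/LEF transcripts in delta and alpha cells were thus mostly those of Tcf7l2, at means of 3.42 and 2.69 RPKM. Tcf7l1 stood at means of 0.133 and 0.0610 RPKM there. In beta cells the means of Tcf7l1 and Tcf7l2 were close, at 0.938 and 0.879 RPKM.

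Within the beta libraries, some members ran with or against the hormone share, which was 31.8%, 23.3%, 22.4%, 19.7% and 17.6% in replicates 1 to 5. Fzd3, Fzd6 and Lgr4 were lower the higher that share was, over all 5 libraries. Lrp6, Ctnnb1, Fzd4, Fzd5, Fzd7, Fzd8, Lrp5, Frzb, Znrf3 and Tcf7l2 were lowest in replicate 1 as well. The share of all genes that ran so was not worked out, so this is no trait of the members. Wnt4 ran the other way, being higher the higher the share was over all 5 libraries, and Sfrp5 was highest in replicate 1 and lowest in replicate 5. With hormone reads left out of the totals, an alternative chosen after seeing the data, delta against beta cells gave 12 higher and 6 lower members. Of all tested genes, 26.8% were then called higher and 22.0% lower. Alpha against beta cells gave 8 and 10 members, beside 31.1% and 25.7% of all tested genes. Immune markers were highest in the beta sort, where 7 markers summed to 105 to 198 RPKM, against 75.6 to 88.8 in delta and 22.7 to 41.4 in alpha libraries. Their part in members that are highest in beta cells was not tested.

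Sex did not separate the members. Of 23 tested, 0 were called between female and male libraries by limma and 0 of 29 by limma-voom, and 0 had an unadjusted p under 0.05 by limma, while 0.0472% of all tested genes were called. With limma-voom Fzd5, Fzd7 and Wnt9a, of 29 members, had an unadjusted p under 0.05, and 0.0345% of all genes were called. Delta cells had 1 library of each sex and alpha cells 1 female library, so a difference within 1 type had little chance of being detected.

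Other genes of the pathway were taken as a list of 52, of which 42 were tested. In delta against beta cells 22 were called higher and 5 lower, with a median log2 fold change of 0.47, beside 37.4% and 13.3% of all tested genes and their median of 0.25. In alpha against beta cells 16 were higher and 7 lower (23.7% and 30.3% of all genes), and in delta against alpha cells 14 and 2 (32.1% and 5.89%). Wls, which carries Wnt proteins to the cell surface, was highest in beta cells, at 109 to 168 RPKM against 37.3 and 40.9 in delta and 43.1 to 47.1 in alpha libraries. It was lower in delta (-1.69, SE 0.15, adjusted p = 1.90e-05) and in alpha (-1.47, SE 0.13, adjusted p = 1.93e-05) than in beta cells. Porcn, which adds the lipid to Wnt proteins, was called in none of these comparisons, with means of 5.11, 5.59 and 5.27 RPKM in delta, beta and alpha cells.

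Ror2, a receptor of the non-canonical branch, stood at 1.26 and 1.22 RPKM in delta, at 8.07 to 10.2 in beta and at 7.53 to 10.6 in alpha libraries. Delta cells were thus lower than beta (-2.17, SE 0.13, adjusted p = 1.87e-06) and alpha cells (-2.23, SE 0.15, adjusted p = 4.56e-06). Ptk7, a polarity co-receptor, was higher in delta (1.79) and alpha (1.20) than in beta cells, at 5.24, 3.14 and 0.798 RPKM by the means. The corepressor Tle4 was higher in delta than in beta (1.76) and alpha cells (1.13), and Tle3 was lower in delta (-0.77) and alpha (-1.41) than in beta cells. Tle6, of the same family, was higher in delta (1.43) and alpha (1.04) than in beta cells. In delta against alpha cells Gpc3, a glypican (0.98), and Bcl9, a cofactor of beta-catenin (0.95), were higher, and Btrc, which marks beta-catenin for degradation, was lower (-0.39). Celsr3, a polarity cadherin, was higher (1.21) and Celsr1 lower (-1.04) in alpha than in beta cells. Gpc3 reached 1 RPKM in delta libraries only and Celsr1 in beta libraries only, so each passed the filter through that type.

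Genes that beta-catenin is known to induce in other tissues made a list of 17, members among them, of which 9 were tested. In delta against beta cells 6 were called higher and 2 lower (37.4% and 13.3% of all genes), in alpha against beta cells 3 and 5 (23.7% and 30.3%), and in delta against alpha cells 6 and 0 (32.1% and 5.89%). Bambi, a pseudoreceptor of the BMP pathway, stood at 23.3 and 25.6 RPKM in delta, at 2.64 to 3.58 in beta and at 6.92 to 11.3 in alpha libraries. The means of Cd44, an adhesion receptor, were 31.1, 7.06 and 0.899 RPKM for delta, beta and alpha cells. With Axin2 and Znrf3, Bambi made up the 3 list members called higher in alpha than in beta cells, and the same 3 were called higher in delta cells. Cd44, Rnf43 and the cyclin gene Ccnd1 were higher in delta and lower in alpha than in beta cells. Zcchc12 stood at 33.6 and 37.5 RPKM in delta, at 14.9 to 54.0 in beta and at 2.35 to 2.80 in alpha libraries. It was lower in alpha than in beta cells (-2.64, SE 0.32, adjusted p = 0.000128) and higher in delta than in alpha cells (3.28, SE 0.39, adjusted p = 0.000194). Myc was lower in both delta and alpha than in beta cells (-0.98 and -0.73), Apcdd1 was lower in delta cells than in beta cells (-0.49), and Notum, Nkd1 and Sp5, targets with narrow expression, were at or near 0 in all types.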

How the data were processed

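The table holds 1 RPKM value per gene and library, computed by the authors and deposited for 19213 genes. Per the submitters' processing notes the tools were STAR 2.4, featureCounts and edgeR 3.12.0, with the build GRCm38.p3. Not given in the sources used here: gene annotation, strand setting and handling of reads with several matches. Within a library the RPKM values were whole multiples of the worth of 1 read, from which totals and reads were recovered.

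Differences were fitted with limma 3.58.1 (R 4.3.3) on log2(RPKM + 1) for the 12700 genes with at least 1 RPKM in at least 2 libraries. The fit took all 10 libraries, with terms for sex and type (6 residual degrees of freedom) and Benjamini-Hochberg adjustment over all genes. The procedure was tested on simulated data. Alternatives changed the pseudocount, filter, scaling, sex term and libraries. Leaving out hormone reads, limma-voom on reads (at least 10 in at least 2 libraries), and a block or an average from title numbers were chosen after seeing the data.

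Members and lists were chosen with earlier results of these data known. Members called between types, or with a mean of at least 5 RPKM, were given in every library. Of the other lists, up to 3 called genes per direction were named by size; Porcn, Ccnd1, Notum, Nkd1, Sp5 and Myc in alpha cells were named after their values were seen. Promoter sequences are RefSeq's (GRCm38.p6). For 39 of the 47 member windows the bases just after the start lay in a GENCODE transcript of the gene. Replicates are numbered in accession order within a cell type.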

Additional observations from a re-analysis of the deposited data

How the results depend on the processing

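Over all alternatives run, 1385 of 1497 single-gene values kept their direction and their side of the threshold, 72 lost the call, 19 gained it and 21 changed sign. Of the members called, 11 of 19 in delta against beta, 14 of 17 in alpha against beta and 9 of 16 in delta against alpha cells were called in every setting that tested them. Wnt9a and Tcf7l1 are among the members so counted. Wnt9a fell below the filter and was not tested without delta replicate 1 or 2, nor was Tcf7l1 without beta replicate 2 or 3. Leaving out 1 library at a time gave 8 to 14 members higher and 3 to 5 lower in delta than in beta cells, 5 to 7 and 8 to 10 in alpha against beta cells, and 6 to 14 and 2 to 3 in delta against alpha cells. The lowest counts for delta cells came without delta replicate 1, which leaves 1 delta library, assumed to vary like the other groups. Where a beta or alpha library was left out, no shares of all genes were worked out. These ranges thus cannot be set against a background. A filter of 5 RPKM, which tests only 14 members, gave 2 lower in delta than in beta and 5 lower in alpha than in beta cells. It gave 8 higher in delta than in alpha cells. No share of all genes was worked out for that filter, so its counts cannot be set against one. Without a filter, where all 53 members were tested, 11 were higher in alpha than in beta and 5 lower in delta than in alpha cells. The shares of all genes were then 19.0% and 5.15%. Limma-voom, which tests 29, gave 11 higher in alpha than in beta cells, beside 24.2% of all genes. Quantile normalization gave 5 lower in delta than in alpha cells, beside 16.1% of all genes, and the cause was not tested.

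The sign changes were all in values that did not pass the test under the alternative. In delta against beta cells they were Wnt5b under quantile normalization (-0.01), Axin1 under median-ratio scaling (-0.17), quantile normalization (-0.07) and without hormone reads (-0.12), and Ctnnb1 under median-ratio scaling (-0.01). In alpha against beta cells they were Wnt4 under quantile normalization (0.13) and Fzd5 under quantile normalization (-0.12), with no sex term (-0.02), without beta replicate 1 (-0.05) and without alpha replicate 2 (-0.05), in a range of -0.05 to 0.15 over single libraries left out. In delta against alpha cells, Lgr4 changed under median-ratio scaling (-0.10), quantile normalization (-0.14), without hormone reads (-0.11) and without delta replicate 1 (-0.01), in a range of -0.01 to 0.35 over single libraries left out. Axin1 changed there under median-ratio scaling (-0.002), quantile normalization (-0.02) and without hormone reads (-0.004), and Tcf7l2 under quantile normalization (-0.08). The cause was not tested. Of the 53 members, 11 had at most 10 reads in the 10 libraries together.

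The title numbers were used in a pair of alternatives chosen after seeing the data. Deviations from the group means correlated at 0.001, 0.372, 0.269 and 0.464 in the 4 pairs with consecutive numbers. Over all pairs of libraries of 2 types the correlations ran from -0.564 to 0.464, the highest being that of a consecutive pair. It is still not shown that the numbers pair the libraries. A replicate block over these 8 libraries (2 residual degrees of freedom) gave 15 higher members and 4 lower ones for delta against beta cells. Of all tested genes, 48.6% and 13.7% were so called. The block gave 5 and 10 members for alpha against beta cells (17.7% and 27.5% of all genes). For delta against alpha cells it gave 14 and 2 (37.4% and 4.68%). Under this replicate block the sign changed, without a call, for Fzd3 in alpha against beta (-0.03) and for Axin2 (0.07) and Tcf7l1 (-0.03) in delta against alpha cells. It ended the calls of Fzd4 in delta against beta (adjusted p = 0.0504), Fzd1 (adjusted p = 0.0688) and Lrp6 (adjusted p = 0.151) in alpha against beta, and Fzd1 in delta against alpha cells (adjusted p = 0.109). Ctnnb1 in delta against beta (0.46, adjusted p = 0.0087) and Lrp6 in delta against alpha cells (1.07, adjusted p = 0.0138) passed. Averaging libraries of the same number gave 14 and 5, 5 and 9, and 11 and 3 members in the same order of comparisons. The shares of all tested genes were 36.5% and 12.7%, 20.5% and 26.1%, and 26.5% and 5.35%. Averaging ended the calls of Fzd1, Lrp6 and Ctnnb1 in alpha against beta and of Fzd4 and Fzd6 in delta against alpha cells.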
